A study of Mus musculus with 2 samples.

Results

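Potassium channel genes were taken as all genes whose symbol begins with Kcn and that have at least 1 protein-coding transcript. The rule used symbols and transcript types only, and it found 94 genes among 55536 annotated genes, 22015 of them nuclear protein-coding genes. They fall into 21 subfamilies and have 397 annotated transcripts. RNA came from left cerebral cortex of 2 female B6CASTF1/J mice, the hybrid of the C57BL/6 and CAST strains, at 25 days of age. Both are replicates of 1 group, and the labels name no transgene, agent or other allele. Each library was made from 300 ng of total RNA with synthetic spike-in RNAs. The labels give the tissues different animal numbers but the same donor identifier, so the spread between them may be technical. With 2 libraries of 1 group no test was possible, and differences are given by a rule of size with intervals that cover counting error only.

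Potassium channels let potassium cross the membrane and so set the resting potential, repolarize the action potential and limit repetitive firing. Pore loops of several chains or domains come together to line a narrow selectivity filter. Voltage-gated channels open on depolarization, inward rectifiers pass current best near rest, tandem-pore channels carry leak, and a further class opens on intracellular calcium or sodium. Auxiliary subunits bind to the pore-forming proteins and change their gating, trafficking or current.

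The selectivity filter sets the pore-forming members apart from the auxiliary ones, and it was looked for in the coding sequences as a check of the names. The pattern was 5 in-frame codons for threonine or serine, then valine, isoleucine or leucine, then glycine, then tyrosine, phenylalanine or leucine, then glycine. It was widened after a narrower form had missed known subfamilies, so the counts are a description. At least 1 complete coding transcript held it in 77 of 94 members (81.9%), against 292 of 21505 protein-coding genes searched (1.36%), the members included. The 17 members without it were all members of Kcnab, Kcne, Kcnip, Kcnmb and Kcnrg, the subfamilies of auxiliary proteins. Of 14 Kcnk genes, which encode channels with a pair of pore loops per chain, 12 held it 2 times. Over the 89 copies, the second codon stood for leucine in 7, all in Kcnc and Kcnd. The fourth codon stood for tyrosine in 59, phenylalanine in 27 and leucine in 3, the last all in Kcnk. Members of several subfamilies are shown to let these differences be read. Each line runs 5′ to 3′ along the coding strand, in GENCODE M21 transcripts on mm10 (the C57BL/6 reference, not the CAST allele), and capitals mark the 15 bases of the filter.
Kcna2: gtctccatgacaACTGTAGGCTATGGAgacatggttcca
Kcna5: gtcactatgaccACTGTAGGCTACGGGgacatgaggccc
Kcnc1: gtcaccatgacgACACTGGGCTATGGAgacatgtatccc
Kcnh3: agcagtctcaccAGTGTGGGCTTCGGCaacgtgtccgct
Kcnma1: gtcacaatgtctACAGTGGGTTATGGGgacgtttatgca
Kcnk1: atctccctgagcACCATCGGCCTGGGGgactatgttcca
Kcnk9, first loop: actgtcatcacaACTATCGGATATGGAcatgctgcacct
Kcnk9, second loop: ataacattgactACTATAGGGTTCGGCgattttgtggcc
Among these, the Kcna2 window lies in an exon at chr3:107105212-107105250, the Kcna5 window at chr6:126533733-126533771 and the Kcnh3 window at chr15:99232917-99232955. The first Kcnk9 window is split by an intron between chr15:72513025-72546015, and the second lies whole at chr15:72512707-72512745. The Kcnk9 filters start at codons 93 and 199. The pattern was found 1 time in Kcnk1, starting at codon 225, and the Kcnk1 line was not assigned to a loop.

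Expected counts, estimates that need not be whole, totalled 31301126 in replicate 1 and 27182336 in replicate 2. Levels are given in TPM, which divides by transcript length and allows levels of different genes to be compared. Cortical markers were present: all 8 genes of the cortical projection neuron list, all 7 of the inhibitory neuron list and all 8 of the astrocyte list were detected, against 2 of 5 cerebellar granule cell genes. The libraries differed in markers of other tissue, and also in immediate early genes and in myelinating oligodendrocyte genes, which do not mark other tissue. Summed TPM of 8 striatal projection neuron genes was 487 and 325 in replicates 1 and 2, of 7 immediate early genes 324 and 175, of 7 choroid plexus genes 102 and 7.31, and of 8 myelinating oligodendrocyte genes 1488 and 2341. In bulk tissue, fewer cells of a type and less RNA per cell cannot be told apart.

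Most potassium channel genes were expressed in the cortex. Detection required at least 1 TPM in each library, and this was met by 70 of 94 members (74.5%), against 58.7% of nuclear protein-coding genes. At least 50 TPM in both libraries was met by 14 members (14.9%), against 9.50%. The median of the mean TPM was 12.1 over members and 3.77 over nuclear protein-coding genes, or 24.3 and 16.02 over detected ones. Together the members summed to 2176 TPM in replicate 1 and 2292 in replicate 2, a mean of 2234 ± 82.2 (SD, n = 2). This was 0.483% and 0.495% of the TPM of nuclear protein-coding genes. No single gene dominated, and the 10 most abundant members held 38.7% and 39.7% of the sum.

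By role, the 30 voltage-gated pore-forming genes (Kcna, Kcnb, Kcnc, Kcnd, Kcnh and Kcnq) held 42.7 ± 0.249% of the summed TPM, with 25 detected. The 17 auxiliary genes held 19.7 ± 0.350%, with 9 detected, and the 15 inward rectifiers 15.1 ± 0.0169%, with 11 detected. Calcium- or sodium-activated channels and their relatives (8 genes, 7 detected) held 9.92 ± 0.456%. The 14 tandem-pore genes held 6.36 ± 0.0682% with 9 detected, and the 10 modulatory voltage-gated genes, whose products form channels only together with other subunits, 6.24 ± 0.269% with 9 detected. Undetected genes were thus spread over the classes, with the largest number, 8, among the auxiliaries. Expressed from the FASTQ-based TPM, the shares were 41.0% for voltage-gated pore-forming and 21.3% for auxiliary genes.

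**Figure D1:**
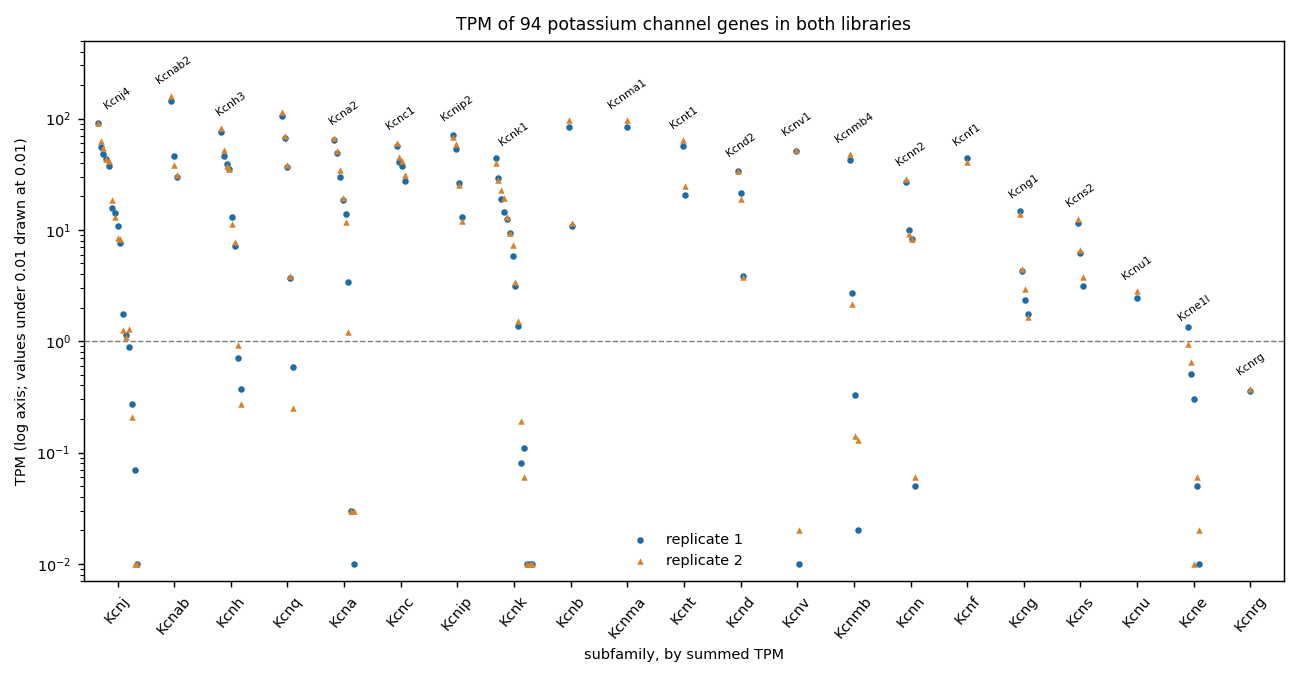
TPM (log axis, values under 0.01 drawn at 0.01) of each of the 94 potassium channel genes in replicates 1 (circles) and 2 (triangles), by subfamily in the order of summed TPM; the dashed line is the detection limit of 1 TPM and a name above a column is its most abundant gene (some columns carry no name). Kcnab2 is the highest point at 145 and 159 TPM, and Kcne and Kcnrg have no gene above the line in both libraries.

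The auxiliary gene Kcnab2, which encodes a cytoplasmic beta subunit of the Kcna channels, was the most abundant member with 145 TPM in replicate 1 and 159 in replicate 2. Kcnj4 and Kcnma1 were also among the highest and could not be ordered, since Kcnj4 had 91.1 in both libraries and Kcnma1 83.6 and 96.7. Of the 29 pairs of neighbours among the 30 most abundant members, 22 had ranges that overlapped between the libraries. The ranges of the other 7 pairs were apart, among them those of Kcnma1 over Kcnh3, Kcnh3 over Kcnip2 and Kcnip3 over Kcnv1. Most neighbours in the order thus did not differ beyond their spread.

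The order also depended on the unit, because members differ in transcript length. Kcnab2 ranked 1 by TPM and 6 by expected counts, and Kcnip2 ranked 7 and 24. Kcnma1 ranked 5 by TPM and 1 by counts. Kcnk9 moved from 37 to 10, and Kcnh1 from 28 to 11. Levels between genes are therefore compared only in TPM below.

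Among the Kcna genes, which encode low-threshold axonal and dendritic channels, 6 of 8 were detected. Kcna2 (chr3:107101146-107115005) had 64.0 TPM in replicate 1 and 67.1 in replicate 2. Kcna1 (chr6:126640397-126646384), its frequent partner in axonal channels, had 49.3 and 51.6. Kcna2 exceeded Kcna1 1.30-fold in both libraries, but 1.09- and 1.04-fold in the FASTQ-based TPM, so the gap depends on the quantification. Kcna6 (chr6:126708329-126740674) had 29.7 and 34.7. Kcna10 and Kcna7 were under the detection limit, at no more than 0.03 TPM in either library. The beta subunit genes were all detected. Kcnab2 exceeded Kcnab1, at 46.4 and 38.2, by 3.12-fold in replicate 1 and 4.16-fold in replicate 2, and Kcnab3 had 29.7 and 31.1.

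The Kcnb subfamily, which carries delayed rectifier current in cell bodies and dendrites, included Kcnb2 with 10.7 and 11.5 TPM. All 4 Kcnc genes, whose fast channels allow high firing rates, were detected within a narrow band. Kcnc1 had 57.0 and 60.8 and Kcnc2 37.5 and 41.8. Kcnc1 exceeded Kcnc2 1.52- and 1.45-fold. Kcnc4, the lowest, had 27.3 and 31.2.

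Genes of the A-type current, which activates and inactivates rapidly below threshold, were led by their auxiliary subunits. Kcnd2 (chr6:21215503-21729805) had 34.1 and 33.8 TPM, Kcnd3 21.5 and 19.0, and Kcnd1 3.87 and 3.79. The ranges of these pore-forming genes did not overlap. Their calcium-binding partners of the Kcnip subfamily were all detected and summed to 165 in both libraries, against 59.6 and 56.6 for Kcnd. Kcnip2 had 71.9 and 68.5, Kcnip3 53.7 and 59.6, and Kcnip4 26.6 and 25.4. Kcnip1, the lowest, had 13.02 and 11.9. The membrane partners Dpp6 and Dpp10, which have no Kcn symbol, had means of 78.4 ± 2.51 and 58.9 ± 1.48.

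The Kcnh genes encode slowly gated channels of the ether-a-go-go type, and 6 of 8 were detected. Kcnh3 had 75.2 and 83.0 TPM, Kcnh7 45.7 and 51.9, and Kcnh5 39.3 and 37.7. Kcnh3 exceeded Kcnh7 1.64- and 1.60-fold. Kcnh2, known chiefly as the gene of a cardiac repolarizing current, had 13.1 and 11.4, and Kcnh6 and Kcnh8 were under 1 TPM in both libraries. In the Kcnq subfamily, Kcnq3 had 66.6 and 69.1 and Kcnq5 36.9 and 38.6. Kcnq1, best known from heart and epithelia, was not detected with 0.59 and 0.25.

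Modulatory subunits, which form no channel alone and change the current of Kcnb channels, were mostly detected. Kcnv1 had 51.4 and 52.5 TPM, and Kcnf1 44.6 and 40.5. Kcng1 led its subfamily with 14.9 and 13.9, ahead of Kcng3 with 4.30 and 4.42 and Kcng2 with 2.34 and 2.97. Kcns2, Kcns1 and Kcns3 had means of 11.97 ± 0.622, 6.41 ± 0.290 and 3.47 ± 0.481. Kcnv2, which is typical of photoreceptors, had no more than 0.02 in either library.

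Inward rectifiers, of which 11 of 15 were detected, were led by Kcnj4 (chr15:79483714-79505241), a strong rectifier, with 91.1 TPM in both libraries. Kcnj9, Kcnj3 and Kcnj6, subunits of the G protein-gated channels that respond to inhibitory transmitters, had 55.02 and 63.2, 48.0 and 53.9, and 37.8 and 41.3. Kcnj9 exceeded Kcnj6 1.45- and 1.53-fold. Their relative Kcnj5, typical of the heart, had 0.27 and 0.21. Kcnj10, the main potassium buffering channel of astrocytes, had 43.6 and 43.3 TPM. Kcnj10 exceeded its partner Kcnj16, at 14.2 and 12.9, 3.06- and 3.35-fold. Kcnj11, the pore of the ATP-sensitive channel, had 15.8 and 18.4, and Abcc8, its regulatory subunit without a Kcn symbol, 14.4 and 22.3. Kcnj8, the vascular relative of Kcnj11, reached 1 TPM in replicate 2 only (0.89 and 1.29). The kidney gene Kcnj1 had 0 counts in both libraries, which allows up to 3 counts each, and Kcnj15 was under 0.1 TPM.

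Tandem-pore genes ranged from 44.6 TPM down to 0 counts, with 9 of 14 detected. Kcnk1 had 44.6 and 39.7 TPM, the mechano- and lipid-sensitive Kcnk2 28.9 and 28.1, and the acid-sensitive Kcnk9 19.1 and 22.8. The ranges of these 3 genes did not overlap. The detected genes ended with Kcnk6 at 1.38 and 1.52. Kcnk16, Kcnk18 and Kcnk7 had 0 counts in both libraries, and Kcnk5 and Kcnk15 were under 0.2 TPM.

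Channels opened by calcium or sodium were led by Kcnma1, the pore of the large-conductance BK channel (chr14:23289431-24014491). Its neuronal auxiliary gene Kcnmb4 had 42.4 and 48.0 TPM, and Kcnma1 exceeded it 1.97- and 2.01-fold. Kcnmb2 was low with 2.72 and 2.15, and Kcnmb1 (the smooth muscle subunit) and Kcnmb3 were not detected. Kcnt1, a sodium-activated channel, had 56.6 and 64.4 and exceeded Kcnt2, at 20.8 and 24.7, 2.73- and 2.61-fold. Among small-conductance channels Kcnn2 had 27.1 and 28.6, Kcnn3 9.94 and 9.21, and Kcnn1 8.32 and 8.36. Kcnn4, known from blood cells and epithelia, had 0.05 and 0.06. Kcnu1, known from sperm, had 2.43 and 2.84. None of the 5 Kcne genes, which encode single-span partners of Kcnq and Kcnh channels, was detected in both libraries, and Kcnrg was at 0.36 and 0.37.

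Accessory and anchoring genes without a Kcn symbol were also read from a list of 20. Of these, 17 were detected, against 58.7% of nuclear protein-coding genes, and the median TPM over all 20 was 54.96. In CPM none with a mean of at least 1 differed 1.5-fold between the libraries. Among nuclear protein-coding genes 1.70% were at least 1.5-fold higher in replicate 1 and 1.46% in replicate 2. At these shares a list this short would hold few or none, so the count says nothing particular about these genes. Ank3, which anchors Kcnq channels at the axon initial segment, had 239.9 and 270.5 TPM, and Lingo1 211.9 and 221.0. Adam22 followed with 94.2 and 103.1 and Dpp6 with 80.2 and 76.7.

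Between the libraries the potassium channel genes differed about as little as nuclear protein-coding genes in general. Counts scaled to library size (CPM, with TMM factors of 0.987 and 1.01) were compared for the 73 members with a mean of at least 1 CPM. Of these, 67 lay within 1.25-fold, against 88.7% of nuclear protein-coding genes. The median absolute log2 ratio was 0.11 over members and 0.11 over nuclear protein-coding genes. By direction, 37 members were higher in replicate 1 and 36 in replicate 2, whereas 41.5% of nuclear protein-coding genes were higher in replicate 2. The 95% counting interval of the ratio excluded 1 for 32 members (43.8%), against 33.1% of nuclear protein-coding genes. That share grows with the counts of a gene, so it cannot be read as a greater difference.

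Kcna5 was the only member at least 1.5-fold apart. It encodes an ultrarapid delayed rectifier known from heart and vascular smooth muscle and lies in 1 exon at chr6:126532551-126535412. Replicate 1 had 195 expected counts and 3.39 TPM, and replicate 2 had 58 counts and 1.20 TPM. In CPM it was 3.00-fold higher in replicate 1 (95% interval 2.22 to 4.09). This is 1 of 73 members, where 1.70% of nuclear protein-coding genes were at least 1.5-fold higher in replicate 1 and 1.46% in replicate 2. FASTQ-based counts of 204 and 63.1 gave a 2.99-fold difference (2.24 to 4.03). Kcna5 has 1 annotated transcript, and 2.81% of its 50-base stretches also occur in Kcna6, the only sharing of that kind it has on the same strand. Its neighbours on the chromosome differed little in CPM. Kcna1, 105 kb away, was 1.02-fold higher in replicate 1 (interval of replicate 2 over replicate 1, 0.939 to 1.03), and Kcna6, the next gene beyond, was 1.10-fold higher in replicate 2 (1.05 to 1.16).

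Several marker lists were also higher in replicate 1 in CPM, among them the immediate early genes (7 of 7 higher, all 7 past 1.5-fold, median log2 ratio of replicate 2 over replicate 1 of -1.10), the striatal genes (8 of 8, 6 past 1.5-fold, median -0.69), the choroid plexus genes (7 of 7, median -2.32) and the thalamic and hypothalamic genes (7 of 7, with Hcrt at 120 counts in replicate 1 and 0 in replicate 2). The mural list, which holds markers of pericytes and vascular smooth muscle, had summed TPM of 84.0 and 89.7, and its smooth muscle gene Acta2 had 6.75 and 6.51. No gene of the mural list was at 0. Their part in the Kcna5 difference was not tested.

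Members just inside the 1.5-fold limit were few. Kcne1l was 1.48-fold higher in replicate 1 (interval 0.873 to 2.57, counts of 40 and 24) and Kcnj13, a gene known from choroid plexus and retina, 1.47-fold higher (0.885 to 2.50, counts of 43 and 26). Both intervals include 1. Kcnj2, a strong inward rectifier, was 1.34-fold higher in replicate 1 (1.22 to 1.47, counts of 1201 and 798) and Kcna3 1.25-fold higher (1.09 to 1.43). Kcnj8 was 1.33-fold higher in replicate 2 (0.870 to 2.05). Below the CPM minimum, Kcne2, also known from choroid plexus, had 10 and 0 counts, the latter allowing up to 3 counts. Of the choroid plexus list 2 of 7 genes were detected, none was at 0, and Ttr had 96.0 and 4.79 TPM beside these 2 members. Their relation was not tested. Of the 50-base stretches of Kcnj13, 42.1% occur on the opposite strand in Gigyf2, so its level is uncertain unless reads were counted by strand.

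**Figure D2:**
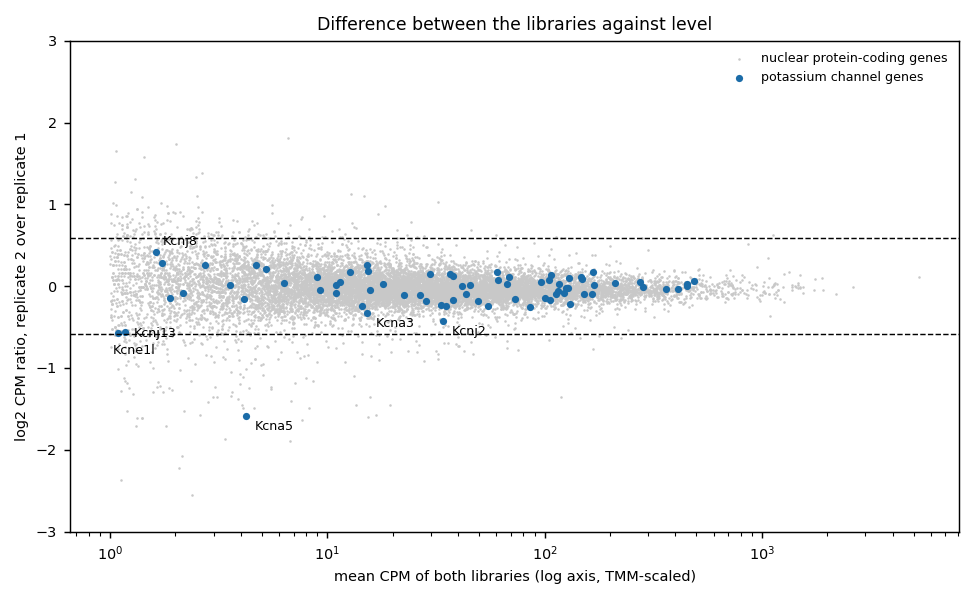
The log2 CPM ratio of replicate 2 over replicate 1 against the mean CPM of both libraries (log axis) for the 73 potassium channel genes with a mean of at least 1 CPM (large points) and for nuclear protein-coding genes (small grey points); dashed lines mark 1.5-fold, and 8 grey genes lie beyond the axis limits of 3. Kcna5 at -1.58 is the only large point outside the lines.

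The pair of quantifications gave nearly the same counts for most members. CPM from the FASTQ-based and the alignment-based tables were within 1.25-fold in both libraries for 72 of the 74 members whose CPM, averaged over both tables and libraries, was at least 1. The share of all nuclear protein-coding genes within that limit is not given here, so this count describes the members only. Kcnj5 alone differed at least 2-fold, against 3.39% of nuclear protein-coding genes, with 19 and 17 alignment-based counts and 42.7 and 45.2 FASTQ-based counts. In CPM the FASTQ-based value was 2.24-fold higher in replicate 1 and 2.56-fold in replicate 2. Kcnj5 met the minimum only through the table where it is high, so its call is a description. With the minimum set on the alignment-based CPM alone, a choice made after the data were seen, 0 of 73 members differed at least 2-fold. Kcnk6 was 1.49-fold higher there in both libraries. In TPM the FASTQ-based values were higher in both libraries for 68 of 70 detected members, Kcna4 and Kcnmb2 being the others, with a median ratio in replicate 2 of 1.45 over members and 1.52 over nuclear protein-coding genes.

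Reads of a few members could be shared with other genes. No 50-base stretch of 69 members occurs on the same strand of another gene, and 86 share under 1%. The exceptions over 10% were Kcnj14, with 30.8% shared with Gm5522, and Kcnk4, with 13.2% shared with its neighbour Catsperz. On the opposite strand, where reads can be told apart only if strand was used, 5 members exceeded 10%. Among them were Kcnj13, Kcna6 (38.8% with Gm26673), Kcnmb4 (30.7% with Kcnmb4os2) and Kcnj3 (29.3% with Gm26794). Their levels above carry this uncertainty.

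Over the genome 10 pairs of adjacent members stood within 200 kb, and their mean TPM differed under 2-fold in 3 pairs and over 5-fold in 4, while in the other 3 both genes were under 1 TPM. Kcnj9 and Kcnj10, 11.9 kb apart on opposite strands (chr1:172320501-172329318 and chr1:172341210-172374085), were both abundant, and Kcnj9 exceeded Kcnj10 by 1.26- and 1.46-fold. Kcnj16 and Kcnj2, 38.2 kb apart on the same strand, had means of 13.6 ± 0.919 and 9.67 ± 1.60. In the Kcna cluster of chromosome 3, Kcna3 had 13.9 and 11.8 TPM and Kcna2 64.0 and 67.1, while Kcna10 beyond it was at 0.03. Kcnmb1, at 0.02 and 0.13, lies within the span of Kcnip1 on the other strand.

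Detected members mostly had a leading transcript. Of the 58 detected members with 2 or more annotated transcripts, 48 (82.8%) had 1 transcript with at least 50% of the gene's TPM in both libraries, against 61.3% of such nuclear protein-coding genes. Replicates 1 and 2 had a common leader in 55 of the 58. A matching share over nuclear protein-coding genes is not given here, so the 55 describe the members only. The alignment-based and FASTQ-based tables had a common leader in 45 members (77.6%), against 65.6% of such nuclear protein-coding genes. Shares of transcripts are estimates from reads that largely fit several transcripts, so a difference between the quantifications marks a share that the reads do not settle.

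Kcnma1 had 38 annotated transcripts, yet it was led by a single one, and Kcnma1-205 held 62.8% and 59.5%. Identical coding sequences were found in Kcna2-201, with 79.4% and 77.9% of Kcna2 TPM, and Kcna2-202, with 19.99% and 21.03%. In the FASTQ-based table Kcna2-202 had almost none and Kcna2-201 87.8% in both libraries. Kcnip2-209 held 73.1% and 75.8%, Kcnip3-203 80.6% and 81.7%, Kcnh3-201 86.0% and 82.7%, and Kcnd3-202 84.5% and 86.0%. Kcnq3-201 held 65.9% and 64.5%, Kcnj9-201 83.1% and 81.8%, and Kcnv1-201 70.6% and 70.3%. Each of these leaders kept over 50% in both libraries.

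In other members a pair of coding transcripts shared the output, and the bases that set them apart are shown here. Capitals mark coding bases found in the named transcript and not in its partner, and lower case marks up to 12 shared bases on either side. Where the same bases stand before a stretch and at its end, its edges can be placed in more than 1 way. The placement nearest the 3′ end is then shown.
Kcnc1-201: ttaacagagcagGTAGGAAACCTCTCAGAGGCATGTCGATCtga
Kcnc1-203: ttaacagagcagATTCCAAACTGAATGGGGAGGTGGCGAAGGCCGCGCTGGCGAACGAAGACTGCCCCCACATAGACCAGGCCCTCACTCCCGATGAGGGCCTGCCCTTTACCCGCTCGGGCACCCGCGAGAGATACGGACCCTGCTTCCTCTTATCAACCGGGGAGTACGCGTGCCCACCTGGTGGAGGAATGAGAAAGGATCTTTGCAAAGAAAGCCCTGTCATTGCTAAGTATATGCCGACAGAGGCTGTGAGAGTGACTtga
Kcnh1-201: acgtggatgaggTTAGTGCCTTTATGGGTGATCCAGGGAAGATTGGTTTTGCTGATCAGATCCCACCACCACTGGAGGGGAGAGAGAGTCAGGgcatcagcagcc
Kcnip1-203: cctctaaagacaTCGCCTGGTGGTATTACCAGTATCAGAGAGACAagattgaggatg
Kcnab2-207: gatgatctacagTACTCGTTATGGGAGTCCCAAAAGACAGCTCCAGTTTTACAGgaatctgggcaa
Kcnj6-202: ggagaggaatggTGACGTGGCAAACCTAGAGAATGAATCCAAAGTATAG
Kcnc1-201 and Kcnc1-203 share their first 501 codons and then differ to the end, over 29 coding bases at chr7:46428280-46428308 in the first and 251 in the second, which spans introns between chr7:46435158-46437333. Kcnc1-201 held 51.0% and 53.3% of Kcnc1 TPM and Kcnc1-203 49.0% and 46.7%. In the FASTQ-based table the order in replicate 1 was the reverse, with 48.9% and 51.1%. Both ends were thus present at about equal TPM, and the order between them was not settled.

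The Kcnh1 coding sequences differ by 81 bases that Kcnh1-201 has after codon 317, placed here between chr1:192277092-192337400. The bases AGG stand both before this stretch and at its end. Its edges can therefore be shifted, and the last capitals may lie in an exon that both transcripts share. Kcnh1-202, without the 81 bases, held 54.99% and 50.7%, and Kcnh1-201 45.01% and 49.3%. The FASTQ-based shares of Kcnh1-202 were 55.7% and 48.0%, so its lead in replicate 2 depends on the table. Kcnip1-203 carries 33 bases near the start of its coding sequence. Kcnip1-201, without them, held 47.8% and 67.8% and Kcnip1-203 42.7% and 25.1%. The FASTQ-based shares were 45.3% and 63.4% for the former and 46.9% and 32.2% for the latter. In both tables the transcript without the insertion had the larger share in replicate 2 than in replicate 1. This transcript pair was chosen after the values were seen, and each share rests on 1 library.

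For Kcnab2 the split between transcripts differed between the quantifications. Kcnab2-207 has 42 coding bases at chr4:152434782-152434823 that Kcnab2-201 lacks. The alignment-based table gave Kcnab2-201 35.8% and 34.9% and Kcnab2-207 31.6% and 30.7%. In the FASTQ-based table they had 1.04% and 14.5% against 65.4% and 43.4%. In CPM the gene total differed less, the FASTQ-based value being 1.11- and 1.07-fold that of the alignment-based table. In TPM it was 1.41- and 1.70-fold, and by TPM Kcnab2 was the highest member in both tables.

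For Kcnj6, Kcnj6-201 held 51.7% and 50.4% and Kcnj6-202, with 37 own bases at its end (chr16:94762360-94762396), 43.7% and 40.7%. Kcnip4-201 held 65.5% and 57.7% and Kcnip4-206, which starts differently, 21.3% and 25.9%. Kcnab1-201 held 71.7% and 84.8% of Kcnab1. A short processed transcript, Kcnab1-203, held 25.2% in replicate 1 and 10.3% in replicate 2, where the TPM of Kcnab1 was lower. In the FASTQ-based table Kcnab1-203 held 36.3% and 42.5%, so this difference between the libraries did not recur there.

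**Figure D3:**
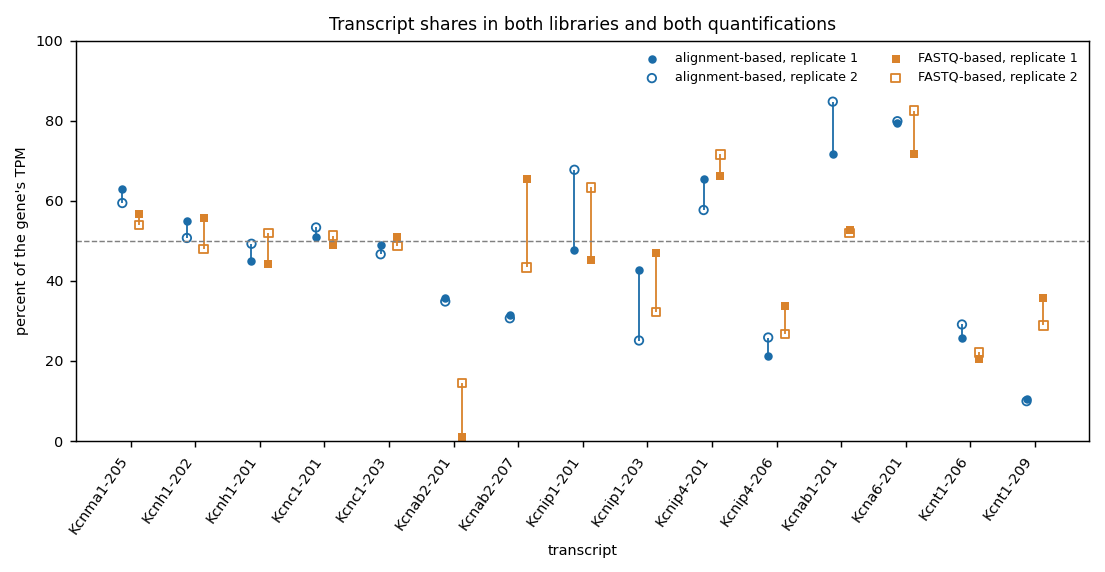
Percent of the gene's TPM in 15 transcripts (the leaders and pairs described in the text) in the alignment-based (circles) and FASTQ-based (squares) tables, with replicate 1 filled, replicate 2 open and a line joining the pair; the dashed line is 50%. Kcnma1-205 is at 62.8% and 59.5% in the alignment-based table, while Kcnab2-201 falls from 35.8% and 34.9% to 1.04% and 14.5% in the FASTQ-based table.

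By transcript type, protein-coding transcripts held 87.8% and 86.7% of member TPM, against 83.5% and 82.3% over all nuclear protein-coding genes. Transcripts annotated as retaining an intron held 6.09% and 7.31%, processed transcripts without an open reading frame 4.12% and 3.97%, and transcripts annotated as targets of nonsense-mediated decay 2.00% and 2.04%. The corresponding shares over all nuclear protein-coding genes were 8.36% and 9.38% for retained introns. Only 2 of 70 detected members (2.86%) had under 50% of TPM in protein-coding transcripts in both libraries, against 8.88% of detected nuclear protein-coding genes.

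These 2 members were Kcna6 and Kcnt1, and they differed in kind. Of Kcna6 TPM 79.5% and 79.9% was in Kcna6-201, annotated as a nonsense-mediated decay target, and 2.70% and 2.31% in transcripts annotated as protein-coding. In the FASTQ-based table the protein-coding share was 20.0% and 7.27%, and that of decay targets 71.8% and 82.6%. The coding sequence of Kcna6-201, of 1590 bases, is identical to that of the protein-coding transcripts Kcna6-202 and Kcna6-204. The annotated type, and not the coding sequence, separates these transcripts. In Kcnt1, retained-intron transcripts held 60.2% and 63.4% of TPM. Kcnt1-206, one of these, led with 25.8% and 29.1%, ahead of the protein-coding Kcnt1-201 with 21.9% and 20.2%. In the FASTQ-based table a short retained-intron transcript, Kcnt1-209, led with 35.7% and 28.9%.

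Retained-intron transcripts also held much of Kcnn3 (47.2% and 45.1%), Kcnab3 (30.6% and 31.8%) and Kcnv1 (29.4% and 29.7%). In Kcnq3, the processed transcript Kcnq3-202 held 23.0% and 20.0%. Shares in Kcnk4 were further apart between the libraries, with 58.8% and 67.9% in protein-coding transcripts.

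**Figure D4:**
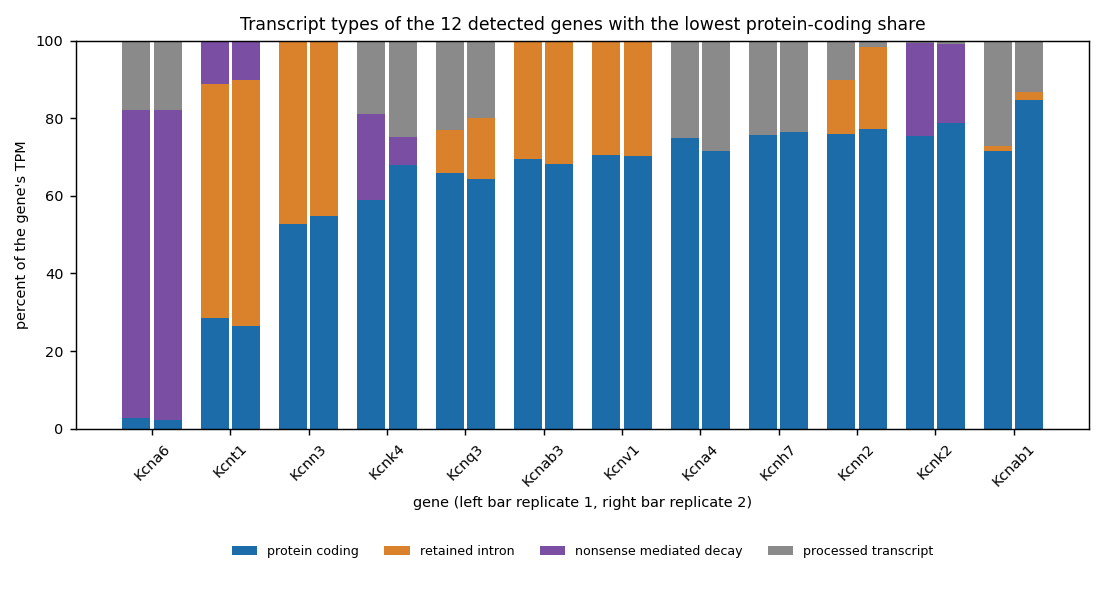
Percent of the gene's TPM by annotated transcript type for the 12 detected potassium channel genes with the lowest protein-coding share, with replicate 1 as the left bar and replicate 2 as the right. Nonsense-mediated decay transcripts fill most of Kcna6 (79.5% and 79.9%), and retained-intron transcripts most of Kcnt1 (60.2% and 63.4%).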

How the data were processed

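Total RNA sequencing of 2 libraries of 1 group was analysed. Per the file headers and the accompanying description, the authors deposited expected counts and TPM per gene and transcript from reads aligned to the transcriptome (mm10, GENCODE M21). Deposited too are each transcript's share of its gene (a percent of TPM) and TPM interval bounds, a signal value the authors computed and which is not interpreted here. A second deposited table, made directly from the reads, gives estimated counts and TPM per transcript, summed per gene here. Aligner, quantifiers, their versions and the use of strand in counting were not given in the sources used here.

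Library sizes came from annotated genes, without spike-ins and entries that carry only a number, which took 6.39e-06% and 1.81e-05% of counts. TMM factors came from edgeR 4.0.16 (with limma 3.58.1, under R 4.3.3) on rounded expected counts, with DESeq2 1.42.0 size factors as an alternative. Expected counts of annotated genes were 31191506 and 27079663, and where a member has 0 counts up to 3 remain possible (0.0974 and 0.109 CPM). Detection meant at least 1 TPM in each library. Between libraries the rule of size was 1.5-fold at a mean of at least 1 CPM, and between quantifications 2-fold in both libraries. Ratios carry exact 95% intervals (Clopper-Pearson, conditional on the sum), which like the floor cover counting error only. The calculation was tested on simulated data. The rest was done in Python 3.11.15 with matplotlib 3.10.9, scipy 1.17.1, pandas 2.3.3 and numpy 2.4.6. The 50-base comparison used all GENCODE M21 transcripts, and coding sequences were cut from them by the annotation.

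Genes were named by a rule: the 3 most abundant members of each subfamily, members past either rule of size, undetected members, and isoforms of the 12 most abundant detected members with 2 or more transcripts plus a few others, among them Kcnc1, Kcnma1, Kcnip4, Kcnab1 and Kcnd3. Of the partner genes the 4 highest were named, and others beside their channel. Some members and sequences that the rule covers are not reported here. Other members and transcripts named were chosen after their values were seen. The members and lists were chosen with earlier results of these data known. A check of promoter sequences was void because too few members had a matching entry.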

Additional observations from a re-analysis of the deposited data

How the results depend on the processing

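Of 24 alternatives tried for counts of members, 20 kept the count within 1.5 times, and of 8 tried for the median TPM and the protein-coding share, 3 moved it by less than 1 SD of the libraries. The number of detected members was 71 when either library was used alone, 74 and 65 with TPM limits of 0.5 and 2, and 73 in the FASTQ-based TPM. The median member TPM was 16.7 in the FASTQ-based table, 24.3 over detected members only, and 11.6 to 12.1 with 1 library left out. The count of members at least 1.5-fold apart was 0 at a mean CPM of at least 5, since Kcna5 lies below that level, and 11 with no minimum, where members of a few counts enter. The count at least 2-fold apart between quantifications was 0 at a mean CPM of at least 5 and 0 with the minimum on the alignment-based CPM alone, an alternative chosen after seeing the data. The protein-coding share of member TPM was 84.5% in the FASTQ-based table and 93.6% by expected counts, which weight long transcripts more. Leading transcripts at 50% or more numbered 48 to 51 with 1 library left out and 43 in the FASTQ-based table. At a share of 70% or more they numbered 33. Leaders shared by both quantifications numbered 48 to 49 with 1 library left out and 35 at a TPM of at least 5. With 1 library left out the protein-coding share was 86.7% to 87.8%. The mean TPM of 52 members, up to 3 of highest level per subfamily, was higher in the FASTQ-based table, by a median of 1.46-fold (1.03 to 2.24). Leaving out a library allows no count of differences between libraries. No paired analysis was possible because there is 1 group. Depth limits members of few counts: those at 0 may hold up to 3 counts.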

Other observations

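The 5 other genes with a Kcn symbol are antisense genes with no protein-coding transcript. Kcnq1ot1, the long antisense RNA of the imprinted Kcnq1 region (chr7:143203458-143296549), had 6233 and 7010 expected counts and 3.22 and 4.31 TPM, while Kcnq1 itself had 0.59 and 0.25 TPM. Kcnmb4os2 (chr10:116473163-116475319) had 116 and 99 counts and 7.93 and 8.52 TPM. It overlaps Kcnmb4, at 42.4 and 48.0 TPM, on the opposite strand. Kcnd3os had 33 and 31 counts and 2.12 and 2.21 TPM. Kcnab3os had 0 and 1 counts, and Kcnmb4os1 had 0 in both libraries, which allows up to 3 counts each.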
